A study of Mus musculus with 8 samples.

Results

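A set of 10 genes of the piRNA and small RNA pathways was followed through meiotic maturation of the mouse oocyte. They were chosen by symbol from the gene column of the expression tables: *Gtsf1*, *Mael*, *Tdrkh*, *Ddx4*, *Mov10l1*, *Pld6* and *Piwil2* of the piRNA pathway, and *Dicer1*, *Ago2* and *Dgcr8* of the miRNA and siRNA pathways. All 10 were found among the 15962 genes listed in every table, and all 10 passed the filter on low values, which left 13968 genes tested. The filter asked for 1 TPM as deposited in 2 libraries, and *Piwil2* passed it through the GV libraries only.

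The study asked how protein phosphorylation acts in oocyte maturation, and the RNA libraries concern BTG4, an adaptor that brings the CCR4-NOT deadenylase to maternal mRNAs, which then lose their poly(A) tails and are degraded. Oocytes came from superovulated females of the outbred ICR stock, and each library pooled 15 of them per the labels. According to the paper, the uninjected GV and MII oocytes of this experiment were taken from in vitro culture. There were 2 libraries each of GV oocytes (arrested at the germinal vesicle stage) and MII oocytes (arrested at metaphase II), both labelled wild type, and 2 each of MII oocytes overexpressing wild-type BTG4 (Btg4wt) or a form with 3 phosphosites changed to alanine (Btg4tm). According to the methods, BTG4 was overexpressed from capped RNA microinjected into fully grown oocytes whose own *Btg4* gene was intact, and no library of oocytes injected with a control RNA was analysed here. Which animals gave which library is not in the labels, so the spread between the 2 libraries of a group may be partly technical.

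Piwi-interacting RNAs (piRNAs) are small RNAs of the germ line that guide PIWI proteins to transposon transcripts. Their precursors are cut and trimmed on the mitochondrial surface and in the nuage, a cytoplasmic granule, and mice without most of these factors are sterile as males while the females stay fertile. MicroRNAs (miRNAs) are released from hairpins by DROSHA with DGCR8 and then by DICER, whereas short interfering RNAs (siRNAs) need DICER alone. Mouse oocytes make abundant endogenous siRNAs, use a shortened DICER transcribed from a retrotransposon promoter inside the gene, and show little miRNA activity when fully grown.

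Levels are TPM, a share of the library corrected for gene length and rescaled between libraries by the median of ratios. Priming was with oligo(dT), so a transcript with a short tail can be captured less well, and a lower level cannot be told apart from a shorter tail. Likewise, fewer oocytes holding a transcript and less of it per oocyte cannot be told apart in a pool. The scale factors were between 0.948 and 1.11, and the depth in reads is unknown from TPM. The mitochondrially encoded genes made up 0.623% and 0.648% of the full TPM total at the GV stage and 2.70% and 2.60% at MII. Their share was 2.05% and 1.75% with Btg4wt, and 0.762% and 1.02% with Btg4tm. This difference moved with the groups, and its part in the results was not tested. The 12 oocyte markers summed to between 42659 and 54740 TPM per library. Of 14 markers of cumulus and granulosa cells, 6 were listed in all tables, 2 in the injection tables alone and 6 in none (*Amh*, *Inhba*, *Foxl2*, *Has2*, *Tnfaip6* and *Ptx3*). The listed ones summed to 25.4 and 25.7 TPM in GV, 30.8 and 33.3 in MII, 31.9 and 26.8 in Btg4wt, and 33.4 and 27.7 in Btg4tm. *Cyp19a1* made up most of these sums. *Inha* was called lower in MII than GV (-1.72, SE 0.39, limma adjusted p = 0.0048) and higher in Btg4tm than Btg4wt (1.74, SE 0.39, limma adjusted p = 0.0061). Its level was 4.37 and 2.11 scaled TPM in GV, 0 and 0.532 in MII, 1.88 and 1.09 in Btg4wt, and 9.83 and 5.18 in Btg4tm. With a pseudocount of 0.1, *Inha* was not called in Btg4tm over Btg4wt (2.24, limma adjusted p = 0.059). The other 3 markers tested were called in neither comparison. For MII over GV, *Kitl* was at 0.95 (limma adjusted p = 0.0031), *Cyp19a1* at 0.63 (limma adjusted p = 0.0039) and *Star* at -0.12. For Btg4tm over Btg4wt, *Kitl* was at -0.76 (limma adjusted p = 0.012), *Cyp19a1* at -0.23 and *Star* at 0.34. The part of cumulus and granulosa cells in the results was not tested. *Btg4* itself averaged 2722 scaled TPM in GV, 5897 in MII, 5344 in Btg4wt and 3897 in Btg4tm. By group mean it was therefore no higher in the injected than in the uninjected MII oocytes, and these tables carry no direct check of the injection. *Btg4* was lower in Btg4tm than Btg4wt by -0.46, with a limma adjusted p under 0.05 but not called. The 2 injected groups thus differed in *Btg4* level as well as in the phosphosites, and the part of that level was not tested. The paper states that both injected forms seemed to lower the oocyte's own BTG4, which it leaves to be clarified.

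The 10 genes lie on different chromosomes except for *Gtsf1*, *Mov10l1* and *Ago2*, which are all on chromosome 15 (GRCm38, GENCODE annotation). *Gtsf1* (ENSMUSG00000022487) spans chr15:103402405-103430470 on the minus strand and has the shortest principal transcript of the 10, at 819 bases with 167 codons. *Mael* (ENSMUSG00000040629, chr1:166201201-166238747, minus strand) has 1546 bases, and *Tdrkh* (ENSMUSG00000041912, chr3:94413273-94434668, plus strand) has 5692. *Dicer1* (ENSMUSG00000041415, chr12:104687742-104751952, minus strand) has 9851, and only *Ago2* (ENSMUSG00000036698, chr15:73095844-73184935, minus strand) was longer, at 13800. The median over 11094 protein-coding genes tested was 2865 bases.

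The last stretch of a maternal mRNA is where the poly(A) signal and the cytoplasmic polyadenylation element (CPE) lie, the latter a U-rich element bound by CPEB that sets tail length and translation during maturation. The final 100 bases of each annotated transcript were therefore searched on the sense strand for the poly(A) signals AATAAA and ATTAAA and for the CPE spelled TTTTAT or TTTTAAT. The windows below come from the annotated GRCm38 transcripts of the 3 genes with a CPE and of 2 of the genes that fell at MII. Capitals mark the motif.

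*Dicer1*, CPE 38 bases from the end: tttctttttctTTTTAATaattgtagtca

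*Dicer1*, poly(A) signal 21 bases from the end: taattgtagtcAATAAAgttattgtctg

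*Ddx4*, CPE 56 bases from the end: caaatgtttgcTTTTATaatatacagat

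*Ago2*, CPE 100 bases from the end: tgatgtggataTTTTATaaagttatttt

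*Mael*, poly(A) signal 27 bases from the end: ctatttcatagATTAAAagtaattgtgg

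*Tdrkh*, poly(A) signal 19 bases from the end: tgaaactggaaAATAAAaagttgctaaa

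Of the 10 genes, *Dicer1*, *Ddx4* and *Ago2* held a CPE in this window, against 20.2% of 10396 annotated transcripts with a 3′ UTR of at least 100 bases. The poly(A) signals overlapped none of the printed CPEs, and one or the other was found in 81.7% of all transcripts and in 7 of these 10. The annotated ends of *Gtsf1*, *Pld6* and *Dgcr8* held neither signal, and the ends that oocytes use were not measured here. These matches are letters in annotated transcripts and were not tested for any effect on level.

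*Gtsf1* was also among the transcripts the study followed by RT-qPCR and by a poly(A) tail assay, and its primers place those readouts on the transcript. The paper reports that the *Gtsf1* tail shortened in control maturing oocytes and that this was blocked in Btg4tm oocytes. By its RT-qPCR, the paper describes the transcript as resistant to degradation in Btg4tm oocytes. The RT-qPCR pair spans 101 bases inside the coding sequence (bases 145 to 648), and the tail assay primer starts 296 bases from the annotated 3′ end. Positions below count from the 5′ end of transcript ENSMUST00000023129, and the reverse primer is antisense.

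*Gtsf1* RT-qPCR forward, 283 to 305: aaattggctacttgtcccttcaa

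*Gtsf1* RT-qPCR reverse, 362 to 383: tcctgctcaatacagctcttgt

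*Gtsf1* tail assay, 524 to 542: gtggcaacaacagtcctgc

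Between GV and MII, 3 of the 10 genes fell (*Mael*, *Gtsf1* and *Tdrkh*), 1 rose (*Dicer1*) and 6 did not pass. A gene was called when limma with Benjamini-Hochberg adjustment over all genes tested gave an adjusted p under 0.05 and the log2 fold change, taken on log2(scaled TPM + 1), was beyond 1 in either direction. By this rule 24.0% of all genes tested were called lower in MII and 12.5% higher, 36.5% in all. The share of the 10 genes called lower, 3 of 10, was thus near that of all genes. Under scaling to the mitochondrially encoded genes, 9 of the 10 were called lower and 0 higher, against 81.6% and 0.0501% of all genes. The median log2 fold change of the 10 was -0.28, against -0.00 over all genes.

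**Figure D1:**
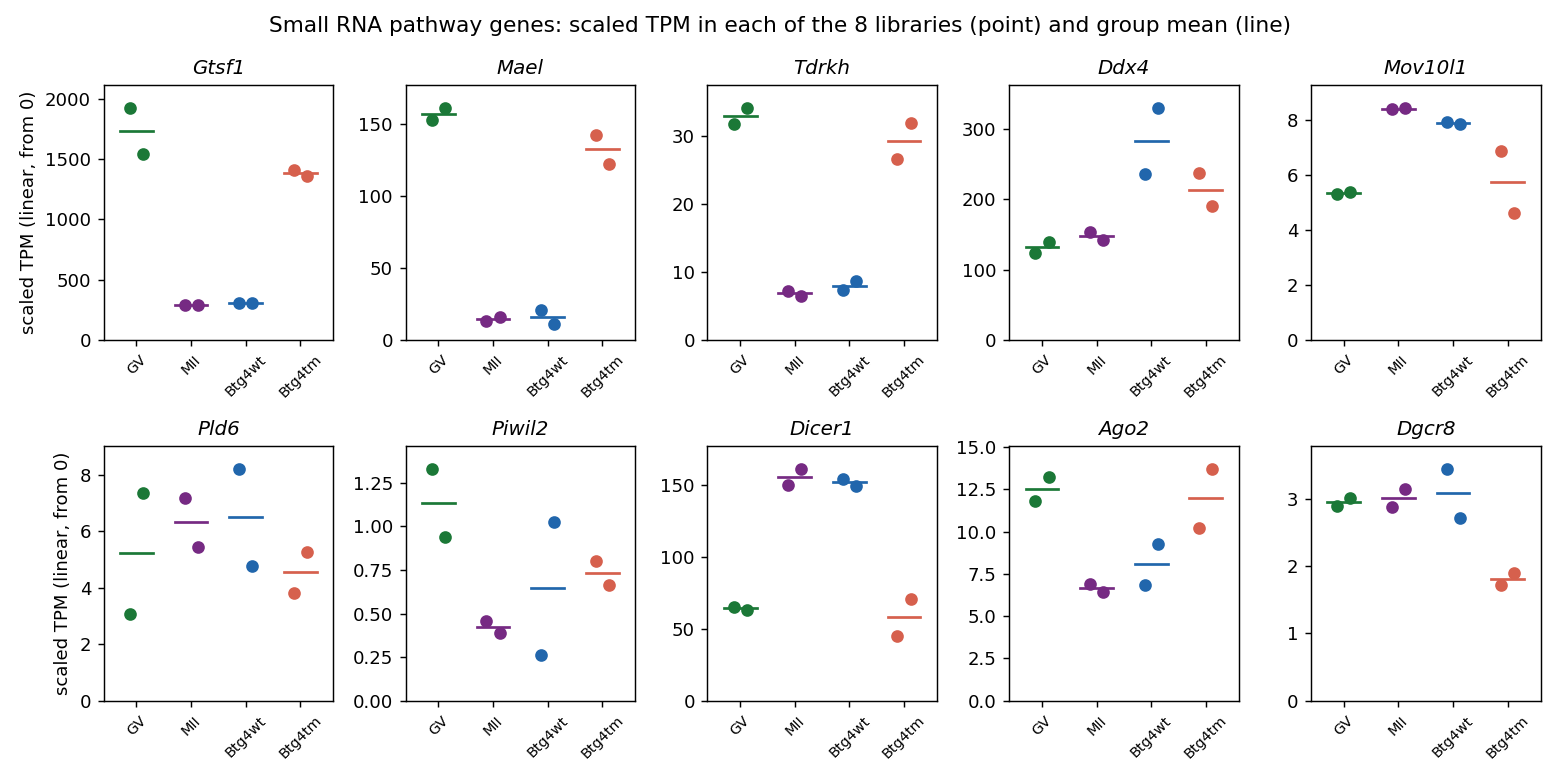
Scaled TPM (linear axes from 0) of the 10 genes in each of the 8 libraries, as 2 points per group with a line at the group mean. *Gtsf1*, *Mael* and *Tdrkh* are high in GV and Btg4tm and low in MII and Btg4wt, *Dicer1* shows the reverse order and *Ddx4* lies higher in the 4 libraries from injected oocytes, orders of the last 2 genes that do not hold under scaling to the mitochondrially encoded genes.

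*Gtsf1* encodes a small double zinc-finger protein that binds PIWI proteins and raises their slicing activity. Its level was 1924 and 1546 scaled TPM in GV, 289 and 292 in MII, 305 and 310 in Btg4wt, and 1412 and 1362 in Btg4tm. Both GV and both Btg4tm libraries lay far above all 4 others, with no overlap. In rank, *Gtsf1* stood at 66 of 15962 genes by its GV mean, 488 in MII, 459 in Btg4wt and 92 in Btg4tm.

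The fall of *Gtsf1* from GV to MII was -2.57 on the log2 scale (SE 0.11, n = 2 libraries per group, limma adjusted p = 1.1e-06). The Btg4tm oocytes exceeded the Btg4wt oocytes by 2.17 (SE 0.11, limma adjusted p = 3.8e-06). MII and Btg4wt differed by 0.08, with a 95% interval from -0.18 to 0.34, and the GV to Btg4tm difference of -0.31 (95% interval -0.58 to -0.05) did not pass the adjustment (limma adjusted p = 0.11). That GV to Btg4tm difference did pass the adjustment under other scalings, each time short of the fold limit. It was -0.48 on TPM as deposited (limma adjusted p = 0.027) and -0.56 under quantile normalization (limma adjusted p = 0.017). Under mitochondrial scaling it was -0.95 (limma adjusted p = 0.0066).

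*Mael*, maelstrom, is a nuage protein needed in mice for transposon silencing in the male germ line. Its level was 153 and 161 scaled TPM in GV, 12.8 and 15.8 in MII, 20.7 and 10.8 in Btg4wt, and 142 and 122 in Btg4tm. The 4 low libraries overlapped each other and none reached the 4 high ones. *Mael* moved furthest of the 10 genes, by -3.37 from GV to MII (SE 0.25, limma adjusted p = 1.3e-05) and by 3.05 between Btg4wt and Btg4tm (SE 0.25, limma adjusted p = 3.6e-05). Its Btg4tm to GV difference was -0.25, with a 95% interval from -0.83 to 0.34.

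*Tdrkh* encodes a Tudor and KH domain protein of the outer mitochondrial membrane that holds PIWI proteins while the 3′ ends of their piRNAs are trimmed. Its level was 31.7 and 34.1 scaled TPM in GV, 7.22 and 6.52 in MII, 7.38 and 8.63 in Btg4wt, and 26.6 and 31.9 in Btg4tm. As with *Gtsf1* and *Mael*, the MII and Btg4wt libraries lay together at the bottom. The differences were -2.11 for MII over GV (SE 0.16, limma adjusted p = 1.3e-05) and 1.75 for Btg4tm over Btg4wt (SE 0.16, limma adjusted p = 5.6e-05). Exons of *Oaz3* on the opposite strand cover 36.7% of the exonic bases of *Tdrkh*, and counting ignored strand. *Oaz3* was between 0.169 and 1.37 TPM in every library, a level that the overlap can itself affect. The effect of the overlap on the level of either gene was not tested.

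*Ddx4* (ENSMUSG00000021758, chr13:112598333-112652475, minus strand), the mouse Vasa, is a DEAD-box helicase of the nuage and a standard germ cell marker. Its level was 124 and 140 scaled TPM in GV, 154 and 143 in MII, 237 and 330 in Btg4wt, and 237 and 191 in Btg4tm. All 4 libraries from injected oocytes lay above all 4 from uninjected ones. Neither main comparison called it, at 0.16 for MII over GV (SE 0.17, limma adjusted p = 0.43) and -0.39 for Btg4tm over Btg4wt (SE 0.17, limma adjusted p = 0.091), and both values changed sign under scaling to the mitochondrially encoded genes. Btg4tm exceeded GV by 0.68 (SE 0.17, limma adjusted p = 0.041), under the fold limit of the rule. On TPM as deposited this difference was 0.52 (limma adjusted p = 0.079), and under mitochondrial scaling it was 0.055 (limma adjusted p = 0.88). Btg4wt exceeded MII by 0.91 (SE 0.17, limma adjusted p = 0.17), with an unadjusted p of 0.00066. Injected and uninjected groups are in tables that list different sets of genes, and injection and table set cannot be told apart here.

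The remaining piRNA genes were low. *Mov10l1* (ENSMUSG00000015365, chr15:88982909-89055152, plus strand) is the helicase that feeds piRNA precursors to the endonuclease encoded by *Pld6*, the mouse Zucchini (ENSMUSG00000043648, chr11:59783897-59787645, minus strand). *Piwil2* (ENSMUSG00000033644, chr14:70372477-70429383, minus strand) encodes the PIWI protein MILI. *Mov10l1* was 5.32 and 5.39 scaled TPM in GV, 8.41 and 8.45 in MII, 7.95 and 7.89 in Btg4wt, and 6.88 and 4.63 in Btg4tm. The MII libraries exceeded the GV libraries by 0.57 (SE 0.20, limma adjusted p = 0.0355), short of the fold limit, and this direction reversed to -1.36 under mitochondrial scaling. *Pld6* was 3.09 and 7.34 scaled TPM in GV, 7.19 and 5.45 in MII, 8.20 and 4.78 in Btg4wt, and 3.81 and 5.27 in Btg4tm. Its groups overlapped and its differences stayed within the spread of the libraries, at 0.32 for MII over GV (95% interval -0.53 to 1.16), which turned to -1.54 under mitochondrial scaling, and -0.41 for Btg4tm over Btg4wt (95% interval -1.26 to 0.44). *Piwil2* was 1.33 and 0.940 scaled TPM in GV, 0.455 and 0.386 in MII, 0.262 and 1.03 in Btg4wt, and 0.802 and 0.667 in Btg4tm. These values are near the filter of 1 TPM, and the MII over GV difference of -0.58 did not pass (SE 0.27, limma adjusted p = 0.091).

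*Dicer1*, which encodes the ribonuclease that makes both miRNAs and siRNAs, ran opposite to *Gtsf1*. Its level was 64.9 and 63.3 scaled TPM in GV, 150 and 161 in MII, 154 and 149 in Btg4wt, and 45.3 and 70.6 in Btg4tm. All MII and Btg4wt libraries exceeded all GV and Btg4tm libraries. It rose by 1.26 from GV to MII (SE 0.18, limma adjusted p = 0.00044), a direction that turned to -0.93 under mitochondrial scaling. Btg4tm was below Btg4wt by -1.41 (SE 0.18, limma adjusted p = 0.00036), which shrank to -0.33 under mitochondrial scaling and was then not called (limma adjusted p = 0.14). Without Btg4tm replicate 1 the difference was -1.09 and without replicate 2 it was -1.72, called in both cases.

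*Ago2*, the slicing Argonaute used by siRNAs and miRNAs, was 11.8 and 13.3 scaled TPM in GV, 6.91 and 6.43 in MII, 6.84 and 9.30 in Btg4wt, and 10.2 and 13.7 in Btg4tm. These libraries followed the order of *Gtsf1* without overlap, at a smaller size. The log2 difference was -0.82 for MII over GV (SE 0.21, limma adjusted p = 0.0085) and 0.52 for Btg4tm over Btg4wt (SE 0.21, limma adjusted p = 0.069), and neither reached the fold limit. Of the bases of its principal transcript, 7.18% lie in 50-base stretches that also occur in other genes, including *Ago1*, where reads may not be placed uniquely.

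*Dgcr8* (ENSMUSG00000022718, chr16:18253948-18289246, minus strand), the RNA-binding partner of DROSHA, was 2.89 and 3.01 scaled TPM in GV, 2.87 and 3.14 in MII, 3.44 and 2.71 in Btg4wt, and 1.71 and 1.89 in Btg4tm. The Btg4tm libraries were the lowest of the 8. The difference from Btg4wt was -0.54 (SE 0.20, limma adjusted p = 0.053), and it reversed to 0.23 under mitochondrial scaling. Other genes, among them *Trmt2a*, cover 17.1% of its exonic bases, and *Trmt2a* was between 1.43 and 9.69 TPM, so its share in these low values was not tested.

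**Figure D2:**
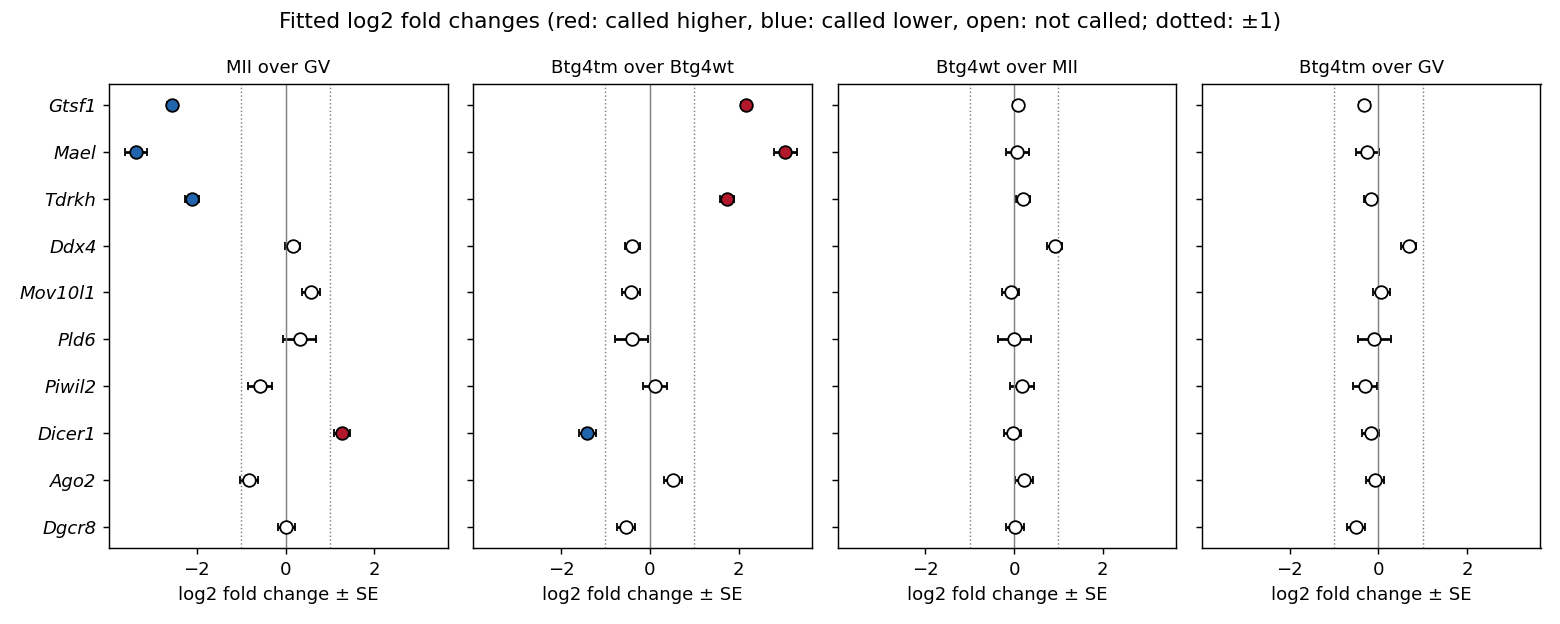
Fitted log2 fold changes with their standard errors (limma) for the 10 genes in 4 comparisons, where filled red is called higher, filled blue is called lower, open is not called and dotted lines mark 1 in either direction. *Gtsf1*, *Mael* and *Tdrkh* are called lower in MII than GV and higher in Btg4tm than Btg4wt, *Dicer1* is called the other way in both (its MII over GV direction reverses under mitochondrial scaling), and nothing is called in the other 2 comparisons.

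The comparison of the injected groups, Btg4tm against Btg4wt, shares no library with MII against GV. It called the 4 genes that the first comparison had called, each in the opposite direction: *Mael*, *Gtsf1* and *Tdrkh* higher, and *Dicer1* lower. Opposite calls were not particular to these genes. The paper reports that most transcripts raised in Btg4tm oocytes were among those degraded by the MII stage in normal oocytes. The share of all genes called oppositely in both comparisons is not given here. Over all genes tested, 18.1% were called higher and 7.94% lower, 26.1% in all. Under mitochondrial scaling, 4 of the 10 were called higher (these 3 and *Ago2*) and 0 lower, against 43.6% and 0.494% of all genes. The median over the 10 genes was -0.14, against 0.01 over all genes. Of the 6 genes not called in this comparison, the log2 differences lay between -0.54 (*Dgcr8*) and 0.52 (*Ago2*).

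Set side by side, the Btg4tm over Btg4wt difference amounted to 84.6% of the GV over MII difference on the log2 scale for *Gtsf1*, 90.5% for *Mael* and 82.9% for *Tdrkh*. For *Dicer1* the corresponding figure was 111%, which turned to -35.5% under mitochondrial scaling, where both of its differences were negative. Under the same scaling the other shares were 68.1% for *Gtsf1*, 74.6% for *Mael* and 66.7% for *Tdrkh*. These shares are given without a test, and all 4 genes lay along the descending band formed by all genes in the plot of both comparisons.

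**Figure D3:**
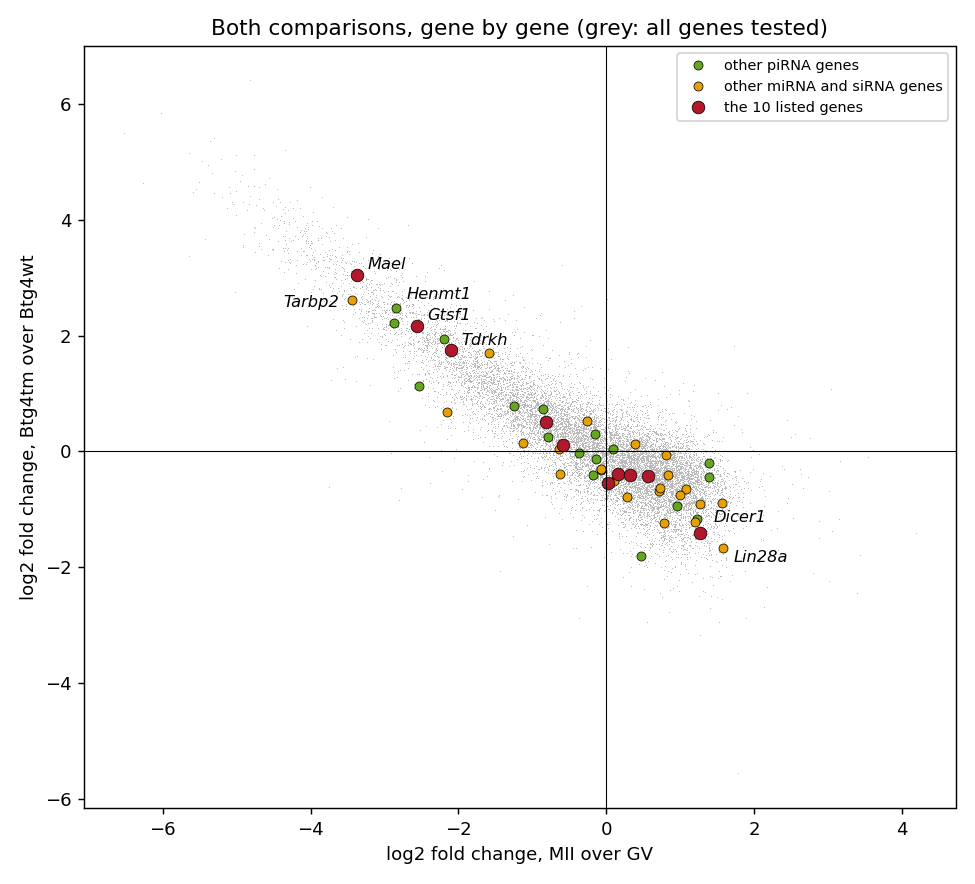
Each point is a gene, with its log2 fold change for MII over GV on the x axis and for Btg4tm over Btg4wt on the y axis (grey, all genes tested; red, the 10 genes; green, other piRNA genes; orange, other miRNA and siRNA genes). *Mael*, *Gtsf1* and *Tdrkh* sit at the upper left with *Tarbp2* and *Henmt1*, and *Dicer1* sits at the lower right beside *Lin28a*, where the direction on the x axis reverses under mitochondrial scaling.

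The comparison of Btg4wt with uninjected MII oocytes called 0 of the 10 genes and 0% of all genes by limma, although 1655 genes had an unadjusted p under 0.05, among them *Ddx4* alone of the 10. The other 9 genes differed by -0.08 to 0.23. The 95% interval was from -0.17 to 0.55 for *Tdrkh*, -0.51 to 0.66 for *Mael* and -0.45 to 0.38 for *Dicer1*. The comparison of Btg4tm with GV called 0 of the 10 genes and 2.04% of all genes. Of the 10, *Gtsf1*, *Ddx4* and *Dgcr8* had an unadjusted p under 0.05 there, as did 29.7% of all genes. The 95% interval was from -0.53 to 0.19 for *Tdrkh* and -0.60 to 0.24 for *Dicer1*. Both comparisons reuse libraries of the main comparisons.

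Ratios of 2 genes within a library do not depend on a scale factor per library, although quantile normalization would change them. *Gtsf1* over *Dicer1* was 29.6 and 24.4 in GV, 1.92 and 1.82 in MII, 1.98 and 2.08 in Btg4wt, and 31.2 and 19.3 in Btg4tm. The 4 high and the 4 low libraries were separated by a wide gap. *Mael* over *Ddx4* was 1.23 and 1.15 in GV, 0.0836 and 0.111 in MII, 0.0874 and 0.0328 in Btg4wt, and 0.60 and 0.641 in Btg4tm. *Tdrkh* over *Ddx4* was 0.255 and 0.244 in GV, 0.0470 and 0.0457 in MII, 0.0311 and 0.0261 in Btg4wt, and 0.112 and 0.167 in Btg4tm. In both ratios to *Ddx4*, the Btg4tm libraries lay between GV and the low groups, and *Ddx4* was itself higher in the injected groups. *Dicer1* over *Ddx4* was 0.522 and 0.453 in GV, 0.977 and 1.13 in MII, 0.650 and 0.452 in Btg4wt, and 0.191 and 0.371 in Btg4tm, so that Btg4wt overlapped GV in this ratio. With 2 libraries a group no exact test of a single ratio can pass 0.05, and none was run.

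**Figure D4:**
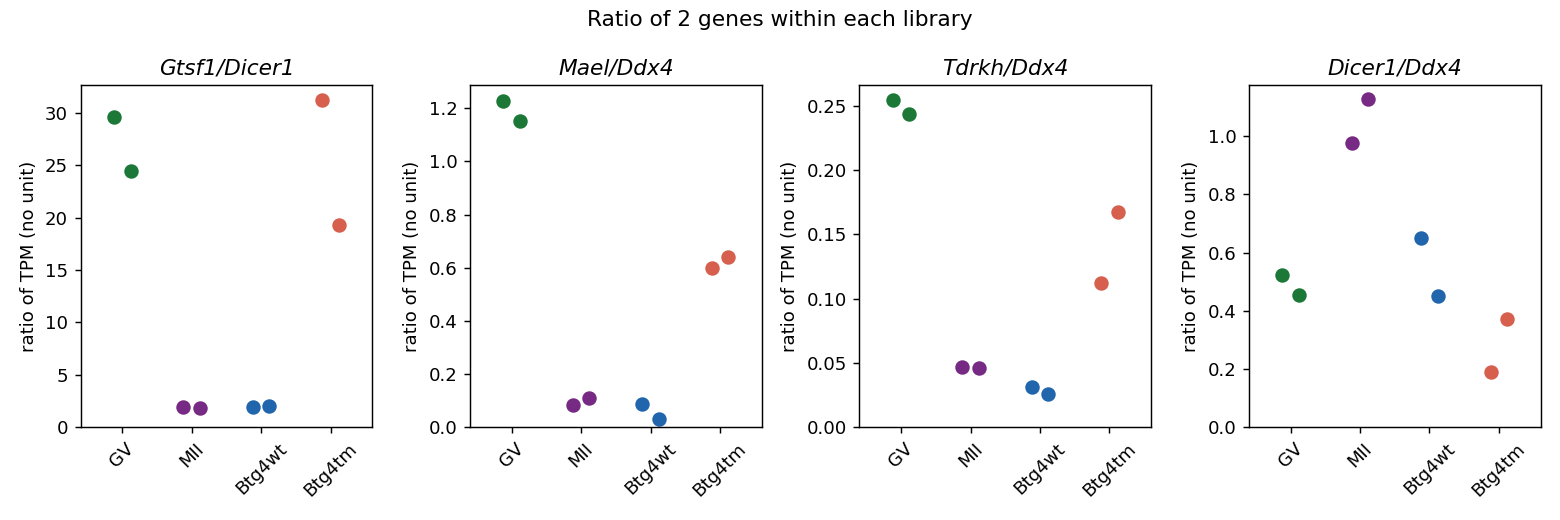
Ratio of TPM (no unit, linear axes from 0) between 2 genes of the same library, 2 points per group. *Gtsf1* over *Dicer1* is between 19.3 and 31.2 in GV and Btg4tm and between 1.82 and 2.08 in MII and Btg4wt, while the ratios to *Ddx4* place Btg4tm below GV.

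Together the 10 genes summed to 2468 and 2186 TPM as deposited in GV and to 622 in both MII libraries. *Gtsf1* alone made up 82.9% and 78.3% of that sum in GV, 45.2% and 45.5% in MII, 40.6% and 37.1% in Btg4wt, and 74.8% and 75.5% in Btg4tm. The summed level therefore followed *Gtsf1*. By group mean, *Gtsf1* was the highest of the 10 genes in every group. *Mael* and *Ddx4* followed in GV, at 157 ± 5.76 and 132 ± 10.9 scaled TPM (SD, n = 2), and *Dicer1* and *Ddx4* in MII, at 155 ± 7.79 and 148 ± 7.75, a pair that did not differ beyond its spread. *Piwil2* was the lowest of the 10 in every group.

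**Figure D5:**
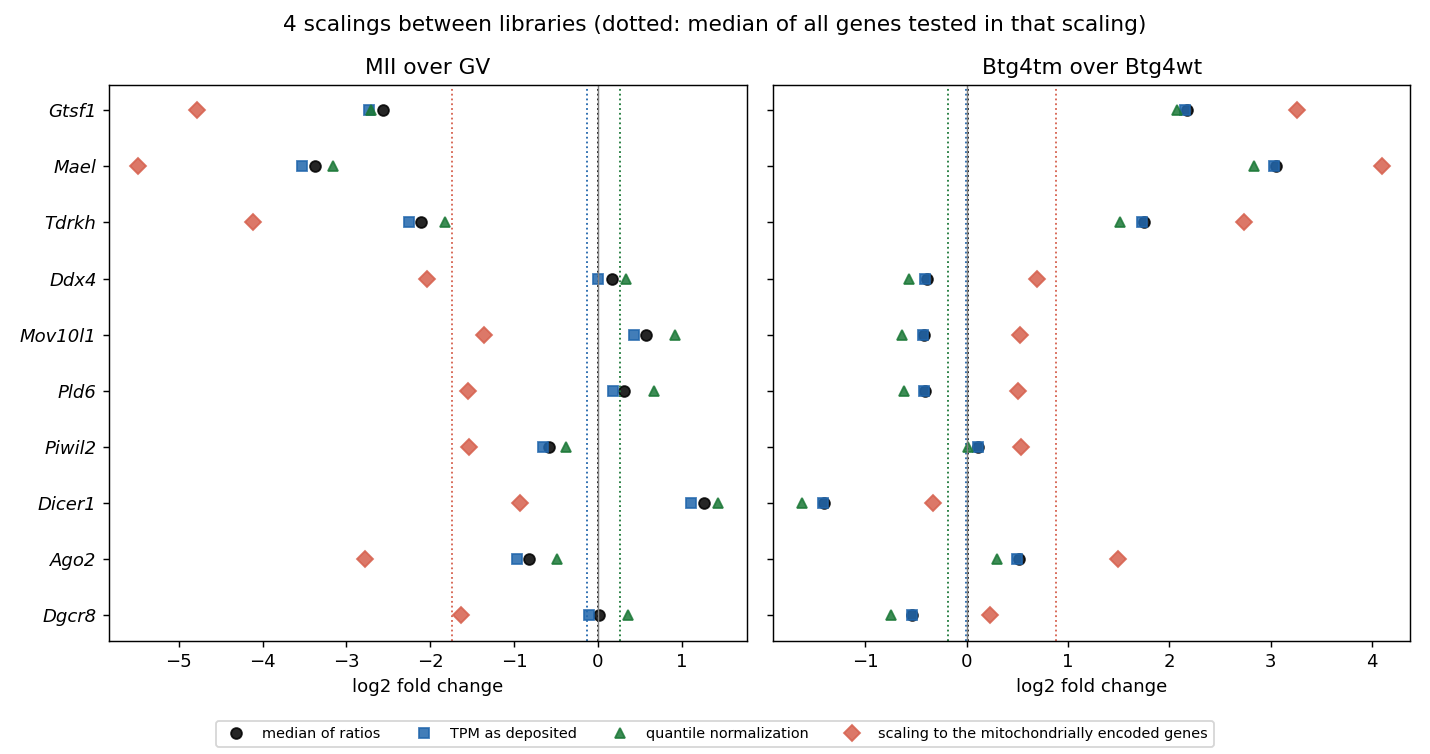
Log2 fold changes of the 10 genes under 4 scalings between libraries, for MII over GV (left) and Btg4tm over Btg4wt (right), with dotted lines at the median of all genes tested under each scaling. *Gtsf1*, *Mael* and *Tdrkh* keep their direction under every scaling, whereas *Dicer1* over GV is positive under 3 scalings and -0.93 under scaling to the mitochondrially encoded genes.

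When libraries were brought to an equal sum of mitochondrially encoded TPM, the median of all genes moved to -1.74 for MII over GV and to 0.88 for Btg4tm over Btg4wt. Quantile normalization moved these medians to 0.27 and -0.18. *Gtsf1*, *Mael* and *Tdrkh* kept both calls under every scaling. Taken relative to the mitochondrially scaled median, MII over GV was -3.04 for *Gtsf1*, -3.74 for *Mael* and -2.37 for *Tdrkh*, against 0.81 for *Dicer1*. Relative to its median, Btg4tm over Btg4wt was 2.38 for *Gtsf1*, 3.22 for *Mael*, 1.86 for *Tdrkh* and -1.21 for *Dicer1*. The position of *Dicer1* against the typical gene was thus on the same side in all scalings, while its own direction from GV to MII was not.

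Other genes of the piRNA pathway were taken from a list of 22, of which 20 were in all tables and 18 were tested. From GV to MII, 5 of the 18 were called lower and 3 higher, with a median of -0.17, beside 24.0% and 12.5% of all genes. The 4 with the largest change were all lower. *Pnldc1*, the exonuclease that trims piRNA 3′ ends, was at -2.87 (SE 0.24, limma adjusted p = 2.1e-05). *Henmt1*, which methylates those ends, was at -2.84 (SE 0.23), and *Fkbp6*, a co-chaperone of the pathway, at -2.20 (SE 0.20). *Gtsf1l*, a relative of *Gtsf1*, was at -2.54 (SE 0.34). Of the transcript bases of *Gtsf1l*, 15.3% lie in 50-base stretches that also occur in *Zfp850*. The 3 called higher were *Gtsf2*, *Mybl1*, a transcription factor of piRNA genes, and *Piwil1*, with log2 fold changes between 1.23 and 1.39 that turned to -0.74, -0.53 and -0.80 under mitochondrial scaling. Between Btg4wt and Btg4tm, 4 of the 18 were called higher and 2 lower, with a median of 0.02, beside 18.1% and 7.94% of all genes. *Henmt1* was higher in Btg4tm by 2.47 (SE 0.23), *Pnldc1* by 2.22 (SE 0.24) and *Fkbp6* by 1.94 (SE 0.20), while *Tex15*, a factor of transposon silencing, was lower by -1.80 (SE 0.47, limma adjusted p = 0.013). *Tex15* was not called without Btg4wt replicate 2 (-1.67, limma adjusted p = 0.068), and under mitochondrial scaling it was at -0.75 and not called. *Henmt1* averaged 90.0 scaled TPM in GV, 11.8 in MII, 9.22 in Btg4wt and 56.0 in Btg4tm. *Tdrkh*, *Pnldc1* and *Henmt1*, whose products act on piRNA 3′ ends, were called in both comparisons, as was *Fkbp6*. The first 3 were grouped after their values were seen, so their shared calls were fixed by that choice and test nothing about piRNA 3′ ends. In Btg4tm against GV, 8 of the 18 had an unadjusted limma p under 0.05, beside 29.7% of all genes. By the call rule 1.02% of all genes were higher there and 1.02% lower. Of the 18, *Gtsf2* was called higher (1.22, SE 0.22, limma adjusted p = 0.014) and *Gtsf1l* lower (-1.40, SE 0.34, limma adjusted p = 0.038). Without Btg4tm replicate 1 neither was called, at 0.95 and -0.88. *Gtsf2* was not called either without GV replicate 1 (1.17) or GV replicate 2 (1.31). *Gtsf1l* was called in only 1 of the 8 fits that left out a library, the one without Btg4tm replicate 2 (-1.94).

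The other miRNA and siRNA genes came from a list of 24, all listed in the tables, of which 22 were tested. Their median from GV to MII was 0.55, with 5 called higher and 4 lower, beside 12.5% and 24.0% of all genes. Over both lists together the split was 8 higher and 9 lower, which became 13 and 7 under quantile normalization and 0 and 31 under mitochondrial scaling. All genes were called higher and lower at 22.3% and 19.4% under the former and at 0.0501% and 81.6% under the latter. The lowest was *Tarbp2*, the double-stranded RNA-binding partner of DICER, at -3.44 (SE 0.22, limma adjusted p = 5.6e-06). It was followed by *Mov10*, an Argonaute-associated helicase related to *Mov10l1*, at -2.15 (SE 0.28), and *Tsnax*, a subunit of the C3PO nuclease, at -1.59 (SE 0.22). Of their transcript bases, 28.6% for *Mov10* and 18.5% for *Tsnax* lie in 50-base stretches shared with other genes. *Lin28a*, the binder of let-7 precursors, was higher by 1.58 (SE 0.13), a direction that turned to -0.58 under mitochondrial scaling. Between Btg4wt and Btg4tm, 2 were called higher and 3 lower, with a median of -0.46, beside 18.1% and 7.94% of all genes. Over both lists the split was 6 higher and 5 lower, which became 5 and 8 under quantile normalization and 14 and 0 under mitochondrial scaling. Over all genes the shares were 14.9% and 12.8% under the former and 43.6% and 0.494% under the latter. *Tarbp2* was higher in Btg4tm by 2.62 (SE 0.22) and *Tsnax* by 1.70 (SE 0.22), while *Lin28a* was lower by -1.66 (SE 0.13) and *Adar*, an RNA-editing deaminase, by -1.24 (SE 0.17), and neither was called under mitochondrial scaling, at -0.60 and -0.22. *Tarbp2* averaged 47.6 scaled TPM in GV, 3.57 in MII, 4.42 in Btg4wt and 32.2 in Btg4tm, the order of *Gtsf1* and the reverse of *Dicer1*, whose product it binds. Of the transcript bases of *Tarbp2*, 60.3% lie in 50-base stretches that also occur in other genes, among them *Gm18561* and *Gm18584*, so its level is uncertain. Of the 22 genes, limma called 0 in Btg4wt against MII and 0 in Btg4tm against GV, beside 0% and 2.04% of all genes. At an unadjusted p under 0.05 there were 0 and 4 of the 22, beside 11.8% and 29.7% of all genes. Of the 18 piRNA genes, limma called 0 in Btg4wt against MII, with 0 at an unadjusted p under 0.05.

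Genes with a pattern like that of *Gtsf1* were sought among the 6881 genes tested whose mean reached 10 scaled TPM, by the root mean square difference of centred log2 values over the 8 libraries. The nearest were *4930429D17Rik* (0.0901), *Kbtbd8os* (0.0945), *Mrpl39* (0.103), *Vps29* (0.105) and *Mrpl48* (0.108). Of the small RNA genes, *Fkbp6* ranked 110 (0.190), *Pnldc1* 185 (0.227) and *Tdrkh* 291 (0.271), while *Mael* ranked 955 (0.494), since it moved further than *Gtsf1*. *Dicer1* ranked 6591 of the 6881. As a description across 11094 protein-coding genes, which share the 8 libraries and their oligo(dT)-primed capture, annotated transcript length had a Spearman correlation of 0.395 with the MII over GV log2 fold change and of -0.492 with that of Btg4tm over Btg4wt. *Gtsf1*, *Mael* and *Pld6* were shorter than the lower quartile of 1815 bases, and *Dicer1* was above the upper quartile of 4366. *Tdrkh*, *Ago2* and *Piwil2* were above it too, and their MII over GV differences were negative, whereas that of the short *Pld6* was 0.32 (-1.54 under mitochondrial scaling). The part of length in these differences was not tested.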

How the data were processed

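Smart-seq2 libraries of 15 pooled oocytes, 2 per group, were used as deposited. Per the labels and the methods, the authors trimmed reads with Trim Galore 0.6.10, aligned them to GRCm38 with HISAT2 2.2.0 and counted them with featureCounts 2.0.6 without strand at a mapping quality of at least 10, and deposited TPM per gene. The authors' own test was DESeq2 on counts, which TPM do not allow. The gene lengths behind the TPM are not given in the sources used here. Groups came from the labels.

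From the TPM, 15962 genes in both table sets were kept, leaving out 1422 listed for uninjected oocytes alone and 486 for injected oocytes alone. Genes reaching 1 TPM as deposited in 2 or more libraries were retained, libraries were scaled to a median ratio, and log2(scaled TPM + 1) was fitted over all 8 libraries with limma 3.58.1 in R 4.3.3 (1 coefficient per group, empirical Bayes with trend, Benjamini-Hochberg over 13968 genes). The added 1 TPM understates changes of low genes. The script was tested on simulated data. Named genes were the 10 members, *Btg4*, per comparison and other list the 4 called genes with the largest absolute log2 fold change (lesser called genes are named where a count is small), and the 5 genes most like *Gtsf1*. The members and lists were chosen with earlier results of these data known. Alternatives changed the scaling, pseudocount, filter, libraries fitted, replicate block and trend, and left out each library in turn. Gene models were from GENCODE M21, a near release of the annotation that the authors used. Precision rests on 2 libraries per group.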

Additional observations from a re-analysis of the deposited data

How the results depend on the processing

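For the 10 genes and the other pathway genes, 128 of 144 counts of called genes stayed within 1.5 times the reported count under the other settings, and 118 of 128 did when 1 library was left out. A count of 0 in both fits was taken as kept, which says little about the calls that were made. The reported count was 0 for both gene groups in Btg4wt over MII, and for the 10 genes in Btg4tm over GV. Of the genes' log2 fold changes, 326 of 350 and 294 of 312 kept their direction and call. Scaling to the mitochondrially encoded genes accounted for most exceptions. For MII over GV it called 0 of the 10 genes higher and 9 lower, and 0 of the other pathway genes higher and 31 lower. For Btg4tm over Btg4wt it called 0 of the 10 lower, and 14 other genes higher and 0 lower. It called 1 of the 10 higher in Btg4wt than MII (*Ddx4*, 1.40, limma adjusted p = 0.049), 1 lower in Btg4tm than GV (*Dgcr8*, -1.08), and 0 other genes higher and 9 lower in Btg4tm than GV, where 21.3% of all genes were called lower. Reversed under it were, for MII over GV, *Ddx4* (-2.04), *Dgcr8* (-1.63), *Dicer1* (-0.93), *Mov10l1* (-1.36) and *Pld6* (-1.54). For Btg4tm over Btg4wt it reversed *Ddx4* (0.69), *Dgcr8* (0.23), *Mov10l1* (0.53) and *Pld6* (0.50), for Btg4wt over MII *Dicer1* (0.46) and *Mov10l1* (0.33), and for Btg4tm over GV *Mov10l1* (-0.50). Quantile normalization called 13 other pathway genes higher in MII and 8 lower in Btg4tm than Btg4wt, and turned *Pld6* (-0.032, Btg4wt over MII, and 0.023, Btg4tm over GV) and *Ago2* (0.0015, Btg4tm over GV). TPM as deposited turned *Dgcr8* (-0.10, MII over GV) and *Mov10l1* (-0.069, Btg4tm over GV), and the fit of only 4 libraries turned *Pld6* (-0.011, Btg4wt over MII). The single other gene called lower in Btg4tm than GV, *Gtsf1l*, became 0 with a pseudocount of 0.1, with only 4 libraries and with empirical Bayes without trend. The cause of each change was not tested.

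Leaving out 1 library, the others of its group were assumed to vary like the remaining groups, and the 4 calls of each main comparison remained in all 8 fits. Other pathway genes called in Btg4tm over GV ranged from 0 to 1 in each direction. Signs turned in ranges of -0.018 to 0.077 (*Dgcr8*) and -0.20 to 0.83 (*Pld6*) for MII over GV, and -0.23 to 0.46 (*Piwil2*) for Btg4tm over Btg4wt. For Btg4wt over MII they were -0.10 to 0.15 (*Dgcr8*), -0.085 to 0.014 (*Dicer1*), -0.36 to 0.52 (*Mael*), -0.17 to 0.52 (*Piwil2*) and -0.32 to 0.35 (*Pld6*), and for Btg4tm over GV -0.28 to 0.11 (*Ago2*), -0.51 to 0.12 (*Dicer1*), -0.19 to 0.30 (*Mov10l1*) and -0.59 to 0.44 (*Pld6*). What the replicate numbers stand for is not given in the labels. In the pairs of groups compared here, same-numbered libraries deviated together with correlations between -0.05 and 0.06, and other pairs were not examined. The fit with the replicate block changed none of the calls of the 10 genes (*Gtsf1*, Btg4tm over Btg4wt, limma adjusted p = 1.5e-05). The filter at 5 TPM left out *Piwil2* and *Dgcr8*. Depth in reads is unknown, so counting error of the low genes cannot be given.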
